A study of Mus musculus with 12 samples.

Results

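The genes described here are 9 acute-phase genes that were followed together with Saa3: Saa1, Saa2, Saa3, Lcn2, Lbp, Hp, C3, Cp and Steap4. They were chosen by name with their levels in all 4 groups of these arrays already known, so their own levels and differences are given as a description. No p-value is printed for them. Where it is said which of them passed a threshold, nothing is read from those passes. Each gene was read from the probe set annotated to it alone, and from the one with the highest mean over the arrays where there were several. Of the 9 genes, 7 had such a probe set, out of 22180 genes on the array. C3 was not analysed here. The only probe set annotated to Saa1 is also annotated to Saa2, and its values are given for the probe set.

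The study measured total RNA of mouse embryonic fibroblasts (MEFs), primary connective-tissue cells from the embryo, on Affymetrix expression arrays. The cells were wild type (WT) or Gdap1-null (KO), lacking Gdap1, a protein of the outer mitochondrial membrane, and were grown in DMEM with 10% FBS. Each genotype was sampled before reprogramming (day 0) and at day 4 of reprogramming with OSKM, the 4 transcription factors Oct4, Sox2, Klf4 and cMyc, which gave 4 groups of 3 arrays. The treatment note, shared by all 12 arrays, describes either a mock or an OSKM transduction followed by further growth, and does not say what the day 0 cells received. No label states whether replicate arrays came from separate cultures or embryos, so the statistics measure the spread between these samples, which may be technical. They name no batch, and a batch that followed a group cannot be told apart from it. In bulk RNA, fewer cells of a type and less RNA per cell cannot be told apart either.

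Levels are deposited log2 values, so a step of 1 is a doubling of the signal. Array medians lay between 5.22 and 5.32. The Gdap1 probe set was near the floor on every array, at 3.19 ± 0.137 (SD, n = 3) in WT day 0 and 3.12 ± 0.155 in KO day 0, and so does not check the genotype. Klf4, one of the transduced factors, was higher at day 4 by 2.94 ± 0.09 (SE) in WT and by 3.28 ± 0.09 in KO (limma, Benjamini-Hochberg adjusted p = 9.02e-10 and 2.92e-10). The 10 fibroblast markers had mean levels between 10.7 and 11.1 on every array. That mean holds changes in both directions at an adjusted p under 0.05 (limma). From day 0 to day 4, 2 of the 10 rose and 5 fell in WT, against 11.1% and 11.7% of all genes. In KO 1 rose and 4 fell, against 13.8% and 16.9%. Between genotypes, 3 were higher in KO at day 0, against 2.48%. At day 4, 2 were higher and 2 lower, against 8.34% and 12.4%. The first WT day 4 array stood apart from its group: its mean correlation with the other arrays of its group was 0.9866, against 0.991 to 0.997 for the rest. Results that rest on that array are given with it and without it.

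The acute phase is the change in secreted proteins that follows infection or injury. In the liver, IL-6, IL-1 and TNF act through STAT3, NF-kB and C/EBP factors to induce plasma proteins, and fibroblasts, epithelia and fat make several of the same proteins locally. Serum amyloid A proteins bind lipids and displace apolipoprotein A-I on high-density lipoprotein. Saa1 and Saa2 are mainly hepatic in mice, whereas Saa3 is made largely outside the liver. On GRCm38.p6 the 3 genes lie together on chromosome 7, Saa3 at chr7:46711998-46719615, Saa1 at chr7:46740497-46743181 and Saa2 at chr7:46751833-46754313. Lcn2 lies at chr2:32384637-32387739, Lbp at chr2:158306493-158332852, Hp at chr8:109575128-109579172, Cp at chr3:19956933-20009750 and Steap4 at chr5:7960472-7982213.

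The regions just upstream of 4 of the genes that were higher in KO than WT cells at day 0 are shown so that their sequences can be read beside those levels. Each line is the 250 bases before a transcript start on the gene's own strand, written 5′ to 3′, from RefSeq on GRCm38.p6. The Lcn2 and Steap4 windows end at the 5′ edge of the gene as annotated. The Saa3 window lies inside the annotated gene, before a start downstream of its 5′ edge, and both Cp starts also lie downstream of the 5′ edge of Cp, so that its first window spans that edge and its second lies inside the gene. Capitals mark matches to the NF-kB pattern (GGG and CC with 5 bases of any kind between them) or the C/EBP pattern TTNNGNAA on either strand.

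Saa3, chr7:46715677-46715926, minus strand: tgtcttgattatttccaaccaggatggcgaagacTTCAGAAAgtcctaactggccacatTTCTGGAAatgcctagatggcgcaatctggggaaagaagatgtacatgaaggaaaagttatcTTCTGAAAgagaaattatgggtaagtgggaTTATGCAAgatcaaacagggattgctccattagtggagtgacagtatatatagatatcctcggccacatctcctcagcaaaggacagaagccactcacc

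Lcn2, chr2:32387740-32387989, minus strand: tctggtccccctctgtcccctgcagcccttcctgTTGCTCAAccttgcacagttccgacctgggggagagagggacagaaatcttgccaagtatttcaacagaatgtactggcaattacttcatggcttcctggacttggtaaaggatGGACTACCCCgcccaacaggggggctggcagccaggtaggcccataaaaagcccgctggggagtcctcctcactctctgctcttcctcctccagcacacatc

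Cp, first window, chr3:19956804-19957053, plus strand: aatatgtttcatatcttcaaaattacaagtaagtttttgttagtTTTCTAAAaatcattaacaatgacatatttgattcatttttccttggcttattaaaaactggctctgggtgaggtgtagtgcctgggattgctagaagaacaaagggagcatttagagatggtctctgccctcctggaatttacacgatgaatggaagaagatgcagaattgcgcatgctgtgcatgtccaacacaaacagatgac

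Cp, second window, chr3:19956999-19957248, plus strand: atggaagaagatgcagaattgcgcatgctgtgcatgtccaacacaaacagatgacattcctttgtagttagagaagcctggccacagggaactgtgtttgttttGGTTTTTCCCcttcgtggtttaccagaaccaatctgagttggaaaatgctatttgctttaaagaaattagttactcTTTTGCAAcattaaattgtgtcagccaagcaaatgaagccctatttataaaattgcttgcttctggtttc

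Steap4, chr5:7960222-7960471, plus strand: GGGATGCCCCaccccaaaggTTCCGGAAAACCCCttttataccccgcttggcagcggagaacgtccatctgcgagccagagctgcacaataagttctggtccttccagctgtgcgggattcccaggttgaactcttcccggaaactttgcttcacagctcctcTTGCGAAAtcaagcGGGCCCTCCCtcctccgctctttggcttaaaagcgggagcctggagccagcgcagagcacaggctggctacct

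These windows differed in the letters they held. The Saa3 window held 4 C/EBP matches, the first bases of which lay 216, 191, 129 and 99 bases upstream of the start, and no NF-kB match. It also held 1 match to the interferon-response pattern (GAAA, 2 bases of any kind, GAAA), 125 bases upstream, which overlaps the C/EBP match that begins at 129. The Lcn2 window held 1 NF-kB match at 102 and 1 C/EBP match at 216. The first Cp window held 1 C/EBP match at 206 and no NF-kB match, and the second, which overlaps it, held 1 NF-kB match at 146 and 1 C/EBP match at 70. The Steap4 window held 3 NF-kB matches, at 250, 226 and 73, and 2 C/EBP matches, at 230 and 87, of which the one at 230 overlaps the NF-kB match at 226. Steap4 also held 1 match to the STAT pattern TTCNNNGAA, at 116. The windows of Saa1 and Saa2, whose probe sets were low on every array, are not shown. They each held 1 NF-kB match, at 78 in Saa1 and at 79 in Saa2. Saa1 also held 2 C/EBP matches and Saa2 held 1. Such short patterns are common: over all 32851 RefSeq windows of this length, 45.8% held the NF-kB pattern, 36.8% the C/EBP pattern, 7.02% the STAT pattern and 2.98% the interferon-response pattern. A match describes letters and is not a bound site.

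Saa3 encodes the serum amyloid A protein that macrophages, fat cells and fibroblasts release locally in mice. Its levels were 5.12, 5.16 and 5.34 on the 3 WT day 0 arrays and 10.52, 10.40 and 10.45 on the 3 KO day 0 arrays. The KO arrays lay above the WT arrays at day 0, and the groups did not overlap. At day 4 the WT levels were 12.76, 7.48 and 6.88, and the KO levels were 11.46, 11.86 and 11.56. The first WT day 4 array held the highest Saa3 level of all 12 arrays, while the other 2 lay between the WT day 0 and the KO arrays. Group means were 5.21 ± 0.117 (SD, n = 3) in WT day 0, 9.04 ± 3.24 in WT day 4, 10.45 ± 0.0631 in KO day 0 and 11.63 ± 0.212 in KO day 4.

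Steap4 encodes a metalloreductase that reduces iron and copper and is induced by TNF in fat cells. Its levels were 4.45, 4.31 and 4.45 in WT day 0, and 8.75, 8.55 and 8.71 in KO day 0. At day 4 they were 10.35, 6.31 and 5.83 in WT, and 9.38, 9.38 and 9.46 in KO. Steap4 followed the same order as Saa3: WT day 0 lowest, the last 2 WT day 4 arrays next, then KO day 0, KO day 4 and the first WT day 4 array. KO day 4 was the tightest group, at 9.41 ± 0.0465 (SD, n = 3), and WT day 4 the widest, at 7.50 ± 2.48.

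Lcn2 encodes lipocalin 2, which binds bacterial siderophores and so withholds iron. Its levels were 5.53, 5.99 and 5.44 in WT day 0 and 9.49, 9.43 and 9.40 in KO day 0. In WT day 4 they were 11.22, 5.43 and 5.32, and in KO day 4 they were 10.58, 10.59 and 10.55. Unlike Saa3 and Steap4, Lcn2 on the last 2 WT day 4 arrays lay below the lowest WT day 0 array, and only the first array of that group was high. The KO arrays lay in a narrow band at each day, 9.44 ± 0.0474 (SD, n = 3) and 10.58 ± 0.018.

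Cp encodes ceruloplasmin, the copper ferroxidase that oxidises iron for loading onto transferrin. Its levels were 5.37, 5.74 and 5.48 in WT day 0, and 8.34, 8.28 and 8.37 in KO day 0. At day 4 they were 9.56, 5.83 and 5.43 in WT, and 8.78, 8.83 and 8.53 in KO. The last 2 WT day 4 arrays lay near the WT day 0 arrays, and the first lay above every KO array. Hp encodes haptoglobin, which captures free haemoglobin. Hp levels were 5.73, 5.46 and 5.48 in WT day 0, and 7.45, 7.47 and 7.49 in KO day 0. They were 10.28, 5.08 and 5.37 in WT day 4, and 7.94, 8.47 and 7.90 in KO day 4. The last 2 WT day 4 arrays lay below every WT day 0 array for Hp, and the first lay above every KO array.

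Lbp encodes the lipopolysaccharide-binding protein that passes bacterial lipopolysaccharide to CD14, and it took a different course. Its levels were 6.65, 6.60 and 6.56 in WT day 0, and 6.38, 6.14 and 6.52 in KO day 0, so the KO arrays lay slightly below the WT arrays. At day 4 they were 11.53, 9.53 and 9.72 in WT and 10.89, 10.61 and 10.89 in KO. All 6 day 4 arrays lay above all 6 day 0 arrays. Group means were 6.60 ± 0.0474 (SD, n = 3), 10.26 ± 1.1, 6.35 ± 0.191 and 10.80 ± 0.164 in WT day 0, WT day 4, KO day 0 and KO day 4.

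The liver-type serum amyloid A genes stayed at the bottom of the array's range. Saa2 was 2.22, 2.55 and 2.19 in WT day 0, 2.80, 2.55 and 2.37 in WT day 4, 2.54, 2.72 and 2.54 in KO day 0, and 2.61, 2.14 and 2.44 in KO day 4. Its mean lay under the 25th percentile of all genes, 3.75, and the 4 groups overlapped. The probe set annotated to both Saa1 and Saa2 lay between 2.42 and 2.91 on all 12 arrays.

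**Figure D1:**
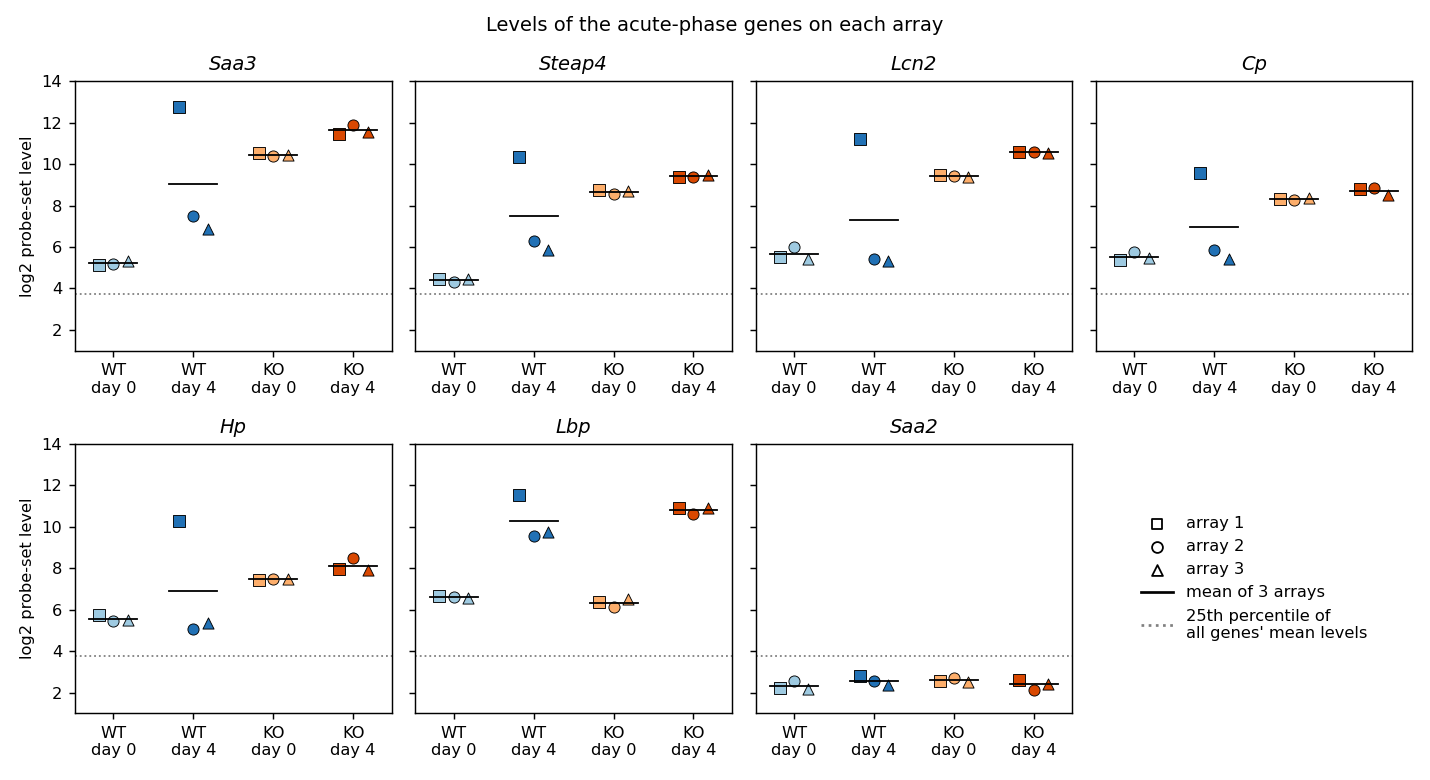
Deposited log2 level (vertical axis) of the 7 measured genes on each of the 12 arrays, with points for arrays and lines for group means. For Saa3, Lcn2, Hp, Cp and Steap4 the KO day 0 arrays lie above the WT day 0 arrays, the first WT day 4 array is the highest of the 12, and Saa2 stays under 3.75 throughout.

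At day 0, before reprogramming, 5 of the 7 measured genes were higher in every KO array than in every WT array, against 13.1% of all genes. Saa3 was higher by 5.25 ± 1.06 log2 units (SE), or 38-fold, and Steap4 by 4.27 ± 0.81, or 19.3-fold. Lcn2 was higher by 3.78 ± 1.11 (13.8-fold), Cp by 2.80 ± 0.75 (6.96-fold) and Hp by 1.92 ± 0.96 (3.77-fold). Lbp differed the other way by -0.26 ± 0.37, with non-overlapping arrays, as 16.4% of all genes had in that direction, and Saa2 differed by 0.28 ± 0.14. In the fit over all genes, Saa3, Steap4 and Cp, 3 of the 7, passed the threshold of an adjusted p under 0.05, where 2.48% of all genes passed in that direction. Nothing is read from that count, because these levels chose the genes. The same holds for the counts of these 7 genes in the other comparisons, since their levels in all 4 groups were known. The standard errors come from all 12 arrays and are widened by the first WT day 4 array, which is in neither group compared: without it they were 0.14 for Saa3, 0.11 for Steap4, 0.12 for Lcn2, 0.12 for Cp and 0.14 for Hp, with the same differences. Lcn2 and Hp then passed as well, 5 of 7, against 4.04% of all genes higher and 4.68% lower. The pass of Cp was lost when any 1 of 9 other arrays, those of WT day 0, KO day 0 and KO day 4, was left out (differences of 2.72 to 2.90), and Lcn2 also passed without the second or the third WT day 4 array.

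In WT cells between day 0 and day 4, Lbp, Saa3 and Steap4 rose. Lbp was higher at day 4 by 3.66 ± 0.37 (SE), or 12.6-fold, Saa3 by 3.83 ± 1.06, or 14.2-fold, and Steap4 by 3.10 ± 0.81, or 8.56-fold. Without the first WT day 4 array these were 3.03 ± 0.12 (8.14-fold), 1.97 ± 0.16 (3.92-fold) and 1.67 ± 0.12 (3.18-fold). Lcn2 differed by 1.67 ± 1.11 with that array and by -0.28 ± 0.13 without it. Hp moved in the same way between the 2 readings, from 1.36 ± 0.96 to -0.33 ± 0.16, and Cp from 1.41 ± 0.75 to 0.10 ± 0.14. Saa2 differed by 0.26 ± 0.14 and by 0.14 ± 0.14. The same 3 genes, Lbp, Saa3 and Steap4, passed with and without that array, against 11.1% and 11.9% of all genes in that direction, and the same 3 had non-overlapping arrays, against 17.4%. Saa3 no longer passed without the first or the second WT day 0 array (3.79 and 3.81).

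In KO cells between day 0 and day 4, Lbp rose by 4.45 ± 0.37 (SE), or 21.9-fold, and was the only 1 of the 7 to pass, against 13.8% of all genes. The genes that were already high in KO cells at day 0 moved less. Saa3 differed by 1.17 ± 1.06 and Lcn2 by 1.14 ± 1.11. Steap4 differed by 0.74 ± 0.81, Hp by 0.63 ± 0.96, Cp by 0.39 ± 0.75 and Saa2 by -0.20 ± 0.14. All but Saa2, 6 of the 7, had day 4 arrays above all day 0 arrays, where 20.5% of all genes did. With the first WT day 4 array left out of the pooled spread the differences were the same, the standard errors were between 0.11 and 0.14, and those 6 genes passed, against 15.6% of all genes.

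Between genotypes at day 4, the comparison depended on the first WT array. With all arrays, Lcn2 differed by 3.25 ± 1.11 (SE), Saa3 by 2.59 ± 1.06, Steap4 by 1.91 ± 0.81, Cp by 1.77 ± 0.75, Hp by 1.20 ± 0.96 and Lbp by 0.53 ± 0.37, each higher in KO, and Saa2 by -0.18 ± 0.14. None of the 7 passed in limma, against 8.34% of all genes in that direction (4 had an unadjusted p under 0.05), and none had non-overlapping arrays, against 14.3%. Without that array Lcn2 was higher in KO by 5.20 ± 0.13 (36.8-fold), Saa3 by 4.45 ± 0.16 (21.9-fold) and Steap4 by 3.33 ± 0.12 (10.1-fold). Cp was then higher by 3.08 ± 0.14, Hp by 2.88 ± 0.16 and Lbp by 1.17 ± 0.12, and those 6 genes passed, against 10.8% of all genes higher and 15.9% lower. Lcn2 also passed, at 3.25, when genes under the 25th percentile of mean level were left out.

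The change from day 0 to day 4 in KO cells minus that in WT cells passed for none of the 7 with all arrays, against 3.95% of all genes in either direction, 2.15% higher and 1.81% lower (1, Saa2, had an unadjusted p under 0.05 in limma). It was -2.66 ± 1.498 (SE) for Saa3, -2.36 ± 1.15 for Steap4, -0.53 ± 1.56 for Lcn2, -0.72 ± 1.36 for Hp and 0.79 ± 0.53 for Lbp. Without the first WT day 4 array it was -0.80 ± 0.21 for Saa3 and -0.93 ± 0.17 for Steap4, which changed less in KO cells, and 1.42 ± 0.18 for Lcn2, 1.42 ± 0.16 for Lbp and 0.96 ± 0.21 for Hp, which changed more. Cp was -1.02 ± 1.06 with all arrays and 0.28 ± 0.18 without that array. The differences of Lcn2, Hp and Cp thus changed sign when it was left out. The 3 higher and 2 lower differences then passed, against 4.34% and 5.31% of all genes. Each group enters more than 1 of these comparisons, so their values are set side by side and are not separate evidence. The median difference of the 7 genes was 2.80 at day 0, 1.67 for WT cells at day 4, 0.74 for KO cells at day 4 and 1.77 between genotypes at day 4, where the medians over all genes were -0.00, -0.01, -0.01 and 0.00. Without the first WT day 4 array the medians of the 7 were 2.80, 0.14, 0.74 and 3.08.

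**Figure D2:**
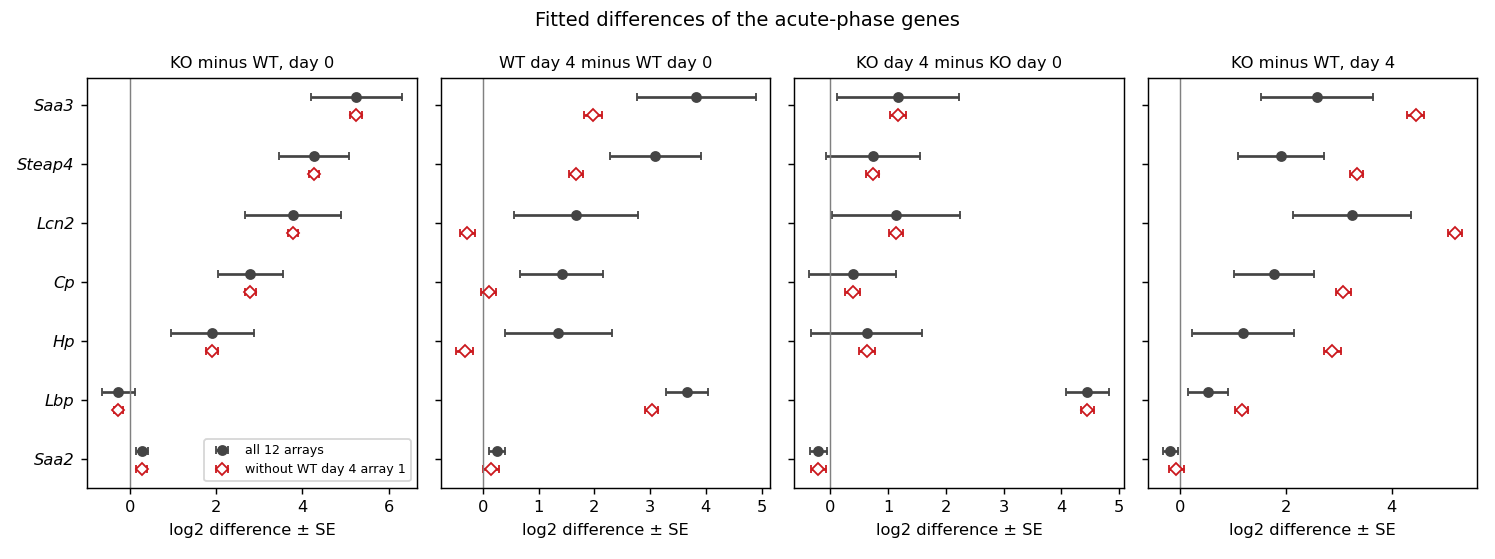
Fitted log2 difference (horizontal axis) of the 7 measured genes in the 4 comparisons, with standard errors as bars, for all 12 arrays and without the first WT day 4 array. The bars of the genes other than Saa2 shorten to between 0.11 and 0.16 when that array is left out, and the WT day 4 difference of Lcn2 moves from 1.67 to -0.28.

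On the first WT day 4 array, Lcn2 was 5.85 log2 units, or 57.7-fold, above the mean of the other 2 arrays of its group. Saa3 was 5.58 units above (47.9-fold), Hp 5.05 (33.1-fold), Steap4 4.28 (19.5-fold), Cp 3.93 (15.2-fold), Lbp 1.90 (3.73-fold) and Saa2 0.34. This array held the highest level of all 12 for all 7 genes, where that was so for 7.89% of all genes, and 6 of the 7 were at least 1 unit above the other 2 arrays, where 1.4% of all genes were, and 1.79% differed by at least 1 unit either way. Of the other lists, 17 of 21 interferon-response genes were at least 1 unit above the other 2 arrays, 8 of 23 transcription factors and feedback genes, 4 of 12 inducing cytokines, 4 of 22 other acute-phase proteins, 3 of 12 macrophage markers and 2 of 20 complement genes. The list medians were 1.78, 0.38, 0.35, 0.36, 0.32 and 0.40. So were 3 of 13 receptors of the secreted products, 2 of 12 cytokine receptors and 1 of 19 iron and copper genes, with medians of 0.235, 0.64 and 0.154. The counts were 1 of 10 neutrophil and 1 of 9 adipocyte markers, and none in the remaining lists. The genes that follow were named after their values were seen. Cfb, factor B of the alternative complement pathway, was 4.45 units above the other 2 arrays, and Serpina3n, a serine protease inhibitor of the acute phase, 3.49. Among cytokines, Il1a was 2.69 units above, Il6 2.55, Il1b 2.27 and Tnf 2.21. Nfkbia and Tnfaip3, feedback inhibitors of NF-kB, were 2.04 and 2.52 units above. Among macrophage markers, Adgre1 was 2.31 units above, Cd14 1.77 and Lyz2 1.12, while Mrc1 differed by -1.445, the only marker that was lower. Of the 12 markers, 8 had their highest level of all arrays on it, among them Cd68 and Laptm5, which were only 0.09 and 0.08 units above. What set this array apart was not tested.

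**Figure D3:**
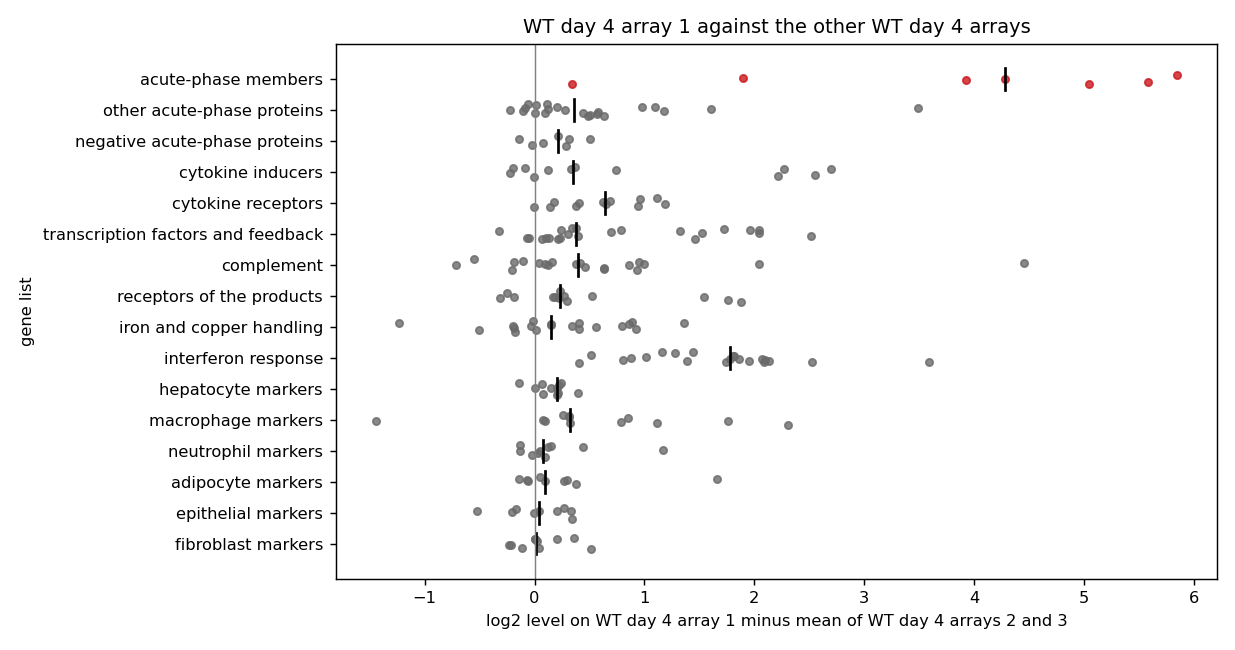
Level on the first WT day 4 array minus the mean of the other 2 WT day 4 arrays, in log2 units, with 1 point per measured gene for each gene list. The acute-phase genes reach 5.85, and Cfb in the complement list reaches 4.45.

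The remaining genes of the acute-phase pathway were read from lists chosen with earlier results of these data known. For each, genes past the threshold of the all-gene fit are counted. The background in either direction was 5.6% of all genes for KO against WT at day 0 and 20.7% at day 4. It was 22.9% for WT day 4 against day 0 and 30.8% for KO day 4 against day 0. By direction, 2.48% were higher and 3.12% lower in KO at day 0, and 8.34% and 12.4% at day 4. From day 0 to day 4, 11.1% rose and 11.7% fell in WT, and 13.8% and 16.9% in KO. Without the first WT day 4 array, 4.04% were higher and 4.68% lower in KO at day 0, and 10.8% and 15.9% at day 4. Then 11.9% rose and 11.1% fell in WT, and 15.6% and 18.8% in KO. The median difference between KO and WT at day 0 was 0.11 for inducing cytokines, 0.23 for their receptors, 0.15 for transcription factors, 0.11 for other acute-phase proteins, -0.10 for complement genes and 0.05 for iron and copper genes, beside -0.00 for all genes. At day 4 the medians were -0.08, 0.32, 0.09, 0.09, 0.05 and 0.04 in the same order, and 0.07, 0.46, 0.20, 0.14, 0.08 and 0.09 without the first WT day 4 array. Interferon-response genes had medians of 2.28 at day 0 and 1.00 at day 4, or 1.42 at day 4 without the first WT day 4 array, and macrophage markers -1.38 and -1.04. From day 0 to day 4 the interferon-response median was 1.36 in WT, or 0.75 without that array, and -0.27 in KO.

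Among cytokines that induce acute-phase genes, 3 of 12 were higher in KO cells at day 0 and none was lower, and 4 were higher and 1 lower without the first WT day 4 array. Il6, the main inducer of hepatic acute-phase genes, was 4.91, 4.73 and 4.94 in WT day 0, and 7.96, 7.93 and 8.01 in KO day 0. It was higher in KO by 3.11 ± 0.51 (SE; limma, adjusted p = 0.00272). At day 4, Il6 was 6.64, 4.13 and 4.04 in WT, and 6.49, 7.29 and 6.44 in KO, so the first WT array lay among the KO arrays. The difference at day 4 was 1.80 ± 0.51 (limma, adjusted p = 0.0251), and that call was lost when the second or the third WT day 4 array or the second KO day 4 array was left out. Il11, a cytokine of the same family, was higher in KO at day 0 by 0.45 ± 0.09 (adjusted p = 0.0115), a call lost without the third WT day 0 or the first KO day 0 array. Lif, also of that family, was higher by 0.77 ± 0.19 (adjusted p = 0.0287), a call lost without any 1 of the 6 day 0 arrays. Between day 0 and day 4, 3 of 12 fell and 1 rose in each genotype, and without the first WT day 4 array 5 fell and none rose in WT, and 6 fell and 1 rose in KO. The WT calls of Il33, a cytokine of the IL-1 family, and of Ctf1 were each lost without any 1 of 4 arrays. The first WT day 4 array was among these for both genes (limma, adjusted p = 0.0509 and 0.063 without it). Il11 fell by 0.43 ± 0.09 in WT and by 0.83 ± 0.09 in KO (adjusted p = 0.00445 and 2.97e-05), and Clcf1, a further cytokine of the family, fell by 0.39 ± 0.08 and 0.37 ± 0.08 (adjusted p = 0.00364 and 0.00384). Lif fell by 0.82 ± 0.19 in KO (adjusted p = 0.00459).

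Of 12 measured receptors of these cytokines, 2 were higher and 1 lower in KO at day 0, and 2 were higher and 2 lower without the first WT day 4 array. Il1rap, the accessory chain of the IL-1 receptor, was higher by 0.76 ± 0.16 (SE; limma, adjusted p = 0.0113) and Il1r2, its decoy receptor, by 0.75 ± 0.16 (adjusted p = 0.0122). Both calls were lost without the first WT day 0 array, and that of Il1rap also without the first KO day 0 array. Il17rc, a chain of the IL-17 receptor, was lower by 0.45 ± 0.08 (adjusted p = 0.00572). From day 0 to day 4, Il6ra, the IL-6 receptor, rose by 1.09 ± 0.16 in WT and 1.17 ± 0.16 in KO (adjusted p = 0.000258 and 0.000116), and Il1rn, the IL-1 receptor antagonist, by 0.69 ± 0.12 and 0.63 ± 0.12 (adjusted p = 0.000805 and 0.00108). Il1r1, the signalling IL-1 receptor, fell by 1.29 ± 0.25 in WT and by 0.73 ± 0.25 in KO (adjusted p = 0.00201 and 0.0404). Its call in KO was lost without any 1 of 8 arrays. At day 4, 3 receptors were higher in KO and 1 was lower, and 7 were higher and 1 lower without the first WT day 4 array. Osmr, the oncostatin M receptor, was higher by 0.89 ± 0.23 (adjusted p = 0.0167), a call lost without the second or the third WT day 4 array.

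Transcription factors that act at acute-phase promoters, with their feedback inhibitors, counted 3 higher and none lower of 23 in KO at day 0. Nfkbiz, an NF-kB cofactor needed for Lcn2 induction in mouse cells, was 7.20, 7.18 and 7.19 in WT day 0 and 8.70, 8.75 and 8.69 in KO day 0, a difference of 1.52 ± 0.39 (SE; limma, adjusted p = 0.0404). Cebpb, which binds acute-phase promoters, was 7.25, 7.43 and 7.29 against 8.48, 8.43 and 8.49, a difference of 1.14 ± 0.30 (adjusted p = 0.0405). Bcl3, a nuclear IkB protein, differed by 1.07 ± 0.29 (adjusted p = 0.0495). Each of these 3 calls was lost when any 1 of 9 arrays, the same as for Cp, was left out. Without the first WT day 4 array, 7 of the 23 were higher in KO at day 0. At day 4, 4 were higher and 1 lower in KO with all arrays, and 9 were higher and 2 lower without that array. Socs3, which inhibits IL-6 signalling, was 8.001, 6.79 and 6.56 in WT and 8.10, 8.19 and 8.12 in KO, higher by 1.02 ± 0.27 (adjusted p = 0.0173), a call lost without the second or the third WT day 4 array. Cebpa, a C/EBP factor of differentiated cells, rose by 1.25 ± 0.17 in WT and by 0.97 ± 0.17 in KO from day 0 to day 4 (adjusted p = 0.000145 and 0.000696). Rel, an NF-kB subunit, fell by 0.55 ± 0.08 and 0.80 ± 0.08 (adjusted p = 0.000179 and 8.08e-06).

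Among 22 other acute-phase proteins, Mt1 alone passed at day 0, higher in KO by 0.51 ± 0.11 (SE; limma, adjusted p = 0.0146). Mt1 encodes a metallothionein that binds zinc, and its call was lost without the first or second WT day 0 array or the first or the third KO day 0 array. Serpina3n followed the members more closely in its levels: 6.83, 6.72 and 6.78 in WT day 0, 10.31, 7.33 and 6.32 in WT day 4, 7.99, 8.14 and 8.27 in KO day 0, and 10.06, 10.32 and 9.82 in KO day 4. It was higher in KO than WT at day 4 by 2.08 ± 0.69 (adjusted p = 0.0484), a call lost when any 1 array other than the first WT day 4 array was left out. Without the first WT day 4 array, 4 of the 22 were higher in KO at day 0 and 6 at day 4. From day 0 to day 4, 3 of the 22 rose in WT and 4 in KO, and none fell with all arrays. Leaving out the first WT day 4 array gave 3 that rose and 1 that fell in WT, and 5 and 1 in KO. Serping1, the C1 inhibitor, rose by 1.89 ± 0.21 in WT and 1.56 ± 0.21 in KO (adjusted p = 2.84e-05 and 9.21e-05), and Tgm2, a transglutaminase, by 0.87 ± 0.18 and 1.60 ± 0.18 (adjusted p = 0.00301 and 2.67e-05). Of 7 plasma proteins that fall in the hepatic acute phase, none passed in limma between genotypes at either day (1 at day 0 and 2 at day 4 had an unadjusted p under 0.05), and 1 was higher at day 4 without the first WT day 4 array. Ahsg, fetuin-A, rose by 0.84 ± 0.18 in WT (adjusted p = 0.00455), and Apoa2, an apolipoprotein of high-density lipoprotein, fell by 0.50 ± 0.10 in KO (adjusted p = 0.00173).

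Among the complement partners of C3, 7 of 20 were lower in KO at day 0 and 1 was higher. The counts at day 4 were also 7 and 1, and were 8 lower and 6 higher without the first WT day 4 array. C1qb, a chain of the C1q recognition protein, was 8.09, 7.91 and 8.29 in WT day 0 and 5.12, 4.73 and 5.07 in KO day 0, a difference of -3.12 ± 0.18 (SE; limma, adjusted p = 2.69e-06). C1qc differed by -1.47 ± 0.17 and C3ar1, the receptor for the C3a fragment, by -1.22 ± 0.13 (adjusted p = 0.000206 and 0.000142). C1s1 lay the other way, at 3.97, 3.83 and 3.74 in WT day 0 and 5.38, 5.55 and 5.57 in KO day 0. From day 0 to day 4, 6 of the 20 rose and 3 fell in WT, and 5 rose and 3 fell in KO. Leaving out the first WT day 4 array gave 5 that rose and 4 that fell in WT, and 7 and 3 in KO. Cd55, which dissolves C3 convertases, rose by 2.89 ± 0.15 in WT and 2.72 ± 0.15 in KO (adjusted p = 8.76e-08 and 1.41e-07). C4b rose by 2.05 ± 0.22 and 2.78 ± 0.22 (adjusted p = 2.85e-05 and 2.28e-06), although a near-identical copy of C4b exists and its signal cannot be assigned to 1 gene with certainty. Clu, clusterin, an inhibitor of the terminal complex, rose by 1.90 ± 0.22 in KO (adjusted p = 4.07e-05). In WT, Clu was 5.84, 5.70 and 5.96 at day 0 and 7.53, 6.49 and 6.57 at day 4. Cd59a, also an inhibitor of the terminal complex, fell by 0.87 ± 0.10 in WT (adjusted p = 3.41e-05).

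Of 13 measured receptors reported for the secreted products, none passed in limma between genotypes at day 0, and 2 had an unadjusted p under 0.05. When the first WT day 4 array was left out, 1 was higher and 1 lower. The lowest adjusted p values were 0.115 for Cd36, with a difference of -1.17 ± 0.38 (SE), and 0.159 for Tlr2, with 1.02 ± 0.37. Cd36, a scavenger receptor that binds serum amyloid A, rose by 2.73 ± 0.38 in KO from day 0 to day 4 (adjusted p = 0.000154). Tlr4, which receives lipopolysaccharide from CD14, rose by 0.41 ± 0.13 in WT and 0.56 ± 0.13 in KO (adjusted p = 0.033 and 0.00459). Tlr4 lost its call in WT without any 1 of the WT day 0 arrays or the first WT day 4 array. Its co-receptor Ly96 was lower in KO than WT at day 4, with a difference of -0.64 ± 0.16 (adjusted p = 0.0145), a call lost without the second WT or the first KO day 4 array. Lrp2, a receptor that takes up lipocalin 2, fell by 0.60 ± 0.11 in WT and 0.81 ± 0.11 in KO (adjusted p = 0.00167 and 0.000141).

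Of 19 measured iron and copper genes, only Slc11a2, an iron importer, passed at day 0, higher in KO by 0.71 ± 0.17 (SE; limma, adjusted p = 0.0315), a call lost without any 1 of the 6 day 0 arrays. Without the first WT day 4 array, 5 passed at day 0, all higher. At day 4, 2 were higher and 3 lower in KO, and 6 were higher and 3 lower without that array. Tfrc, the transferrin receptor, was among the lower ones, with a difference of -0.88 ± 0.12 (adjusted p = 0.000383), and so was Aco1, an iron sensor, with -0.45 ± 0.08 (adjusted p = 0.00258). The paralogues of Steap4 did not move as a block: Steap2 was higher in KO at day 4 by 0.90 ± 0.20 (adjusted p = 0.00752) and Steap3 was lower, with a difference of -0.42 ± 0.08 (adjusted p = 0.00218). Steap1 was higher by 0.76 ± 0.22 (adjusted p = 0.0279), a call lost without the second or the third WT day 4 array or the first or second KO day 4 array. From day 0 to day 4, 4 of the 19 rose and 3 fell in WT, and 5 rose and 5 fell in KO. Without the first WT day 4 array, 5 rose and 5 fell in WT, and 6 and 6 in KO. Cybrd1, a ferric reductase, rose by 1.44 ± 0.19 in WT and 2.02 ± 0.19 in KO (adjusted p = 0.000137 and 9.15e-06). Tfrc fell in KO by 1.02 ± 0.12 and Aco1 by 0.50 ± 0.08 (adjusted p = 3.94e-05 and 0.000526).

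Interferon-response genes, like most of the acute-phase genes, were higher in KO than WT at day 0. From day 0 to day 4 in KO the medians were -0.27 for the interferon-response genes and 0.74 for the acute-phase genes, which were chosen with these levels known. At day 0, 17 of 21 were higher in KO and none was lower. Ifit1, an interferon-induced RNA-binding protein, was 4.93, 5.27 and 5.28 in WT day 0, and 10.22, 10.02 and 10.11 in KO day 0, a difference of 4.96 ± 0.49 (SE; limma, adjusted p = 7.38e-05). The mean level of the 21 genes was 5.44 to 5.48 in WT day 0, 7.82 to 7.87 in KO day 0 and 7.43 to 8.25 in KO day 4, and was 7.83, 6.48 and 5.90 on the 3 WT day 4 arrays. The KO arrays and the first WT day 4 array were thus high for both sets of genes. From day 0 to day 4, 12 of the 21 rose in WT, while 2 rose and 2 fell in KO. Over all genes, 13.8% rose and 16.9% fell in KO. With the first WT day 4 array left out, 10 of the 21 rose and 1 fell in WT, and 4 rose and 7 fell in KO. With all arrays, Oas2 rose in KO by 4.32 ± 0.52 and Oas3 by 1.23 ± 0.19 (limma, adjusted p = 4.65e-05 and 0.000357). Oasl1 fell in KO by 1.65 ± 0.40 and Ifit2 by 0.57 ± 0.16 (adjusted p = 0.00625 and 0.0162). The call of Ifit2 was lost without any 1 of 3 arrays. In KO against WT at day 4, 10 of the 21 were higher, and 20 without the first WT day 4 array. The part of the interferon response in the levels of the acute-phase genes was not tested.

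Markers of other cells were read in the same way. Of 12 macrophage markers, 9 were lower in KO at day 0 and 9 at day 4, and none was higher. Their summed level was 72.7 to 73.2 in WT day 0, 70.9 to 78.1 in WT day 4, with the 78.1 on the first array, 57.7 to 59.4 in KO day 0 and 59.4 to 60.5 in KO day 4. None of the 12 had a mean under the 25th percentile of all genes. Cd68, a lysosomal protein of macrophages, was 8.43, 8.39 and 8.42 in WT day 0 and 7.11, 7.27 and 7.06 in KO day 0, a difference of -1.27 ± 0.09 (SE; limma, adjusted p = 6.42e-06). Most of the macrophage markers were thus lower in the KO groups, although the arrays of Cd14 and Aif1 overlapped between genotypes at day 0. Saa3, Lcn2, Cp, Steap4 and Hp were higher in KO at day 0, and a link between these genes and the markers was not tested. Of 11 measured hepatocyte markers, none passed in limma in any of the 5 comparisons (1 had an unadjusted p under 0.05, between genotypes at day 4), 5 had means under the 25th percentile, and their mean level was 3.67 to 3.93 on every array. Of 10 neutrophil markers, 1 passed in 1 comparison, Ly6g from day 0 to day 4 in KO, and their summed level was 37.9 to 40.5 over all arrays. Adipocyte markers had mean levels of 5.23 to 5.52, with 1 of 9 lower in KO at day 0, and epithelial markers 4.95 to 5.64, with 2 of 9 lower.

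**Figure D4:**
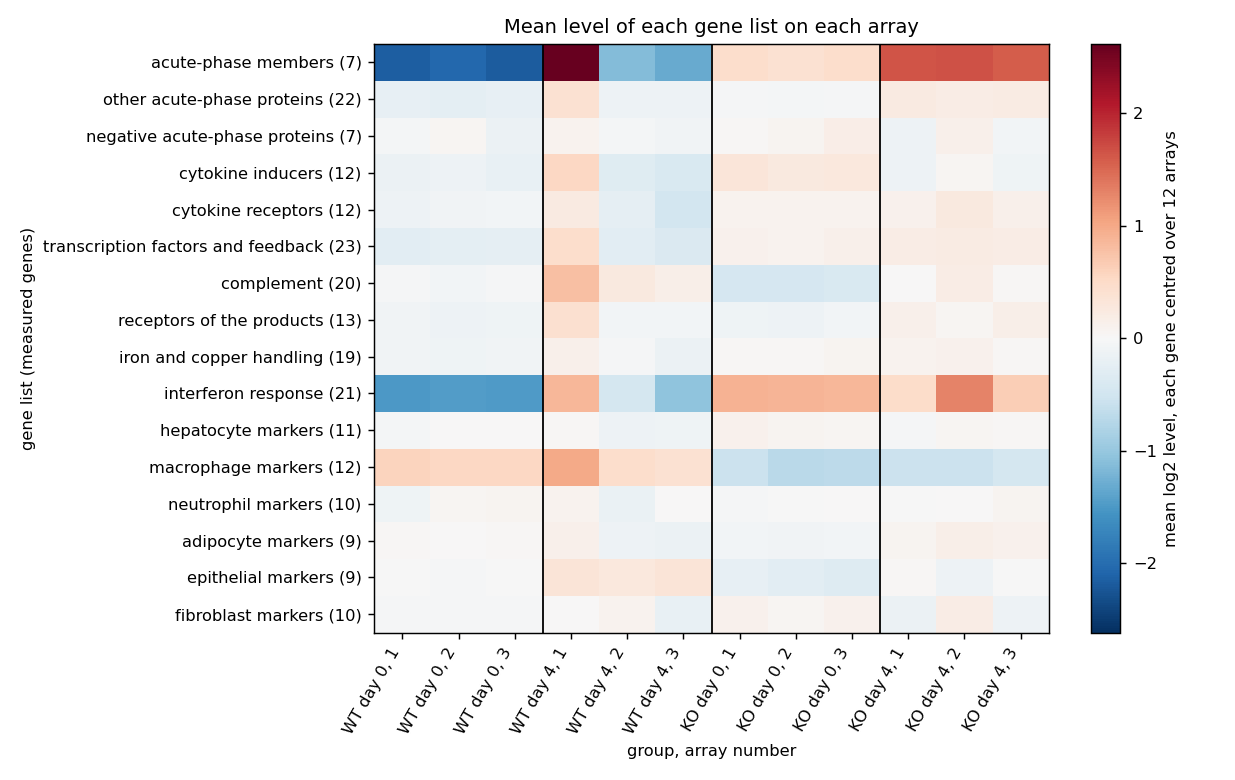
Heat map of the mean log2 level of each gene list (rows) on each of the 12 arrays (columns), with every gene centred on its own mean over the arrays (red above, blue below). The acute-phase row is lowest in WT day 0, between -2.18 and -2.06, and highest on the first WT day 4 array, at 2.62, and the macrophage row is below 0 on all KO arrays.

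The genes whose levels over the 12 arrays were most like those of Saa3 were looked for among the 3743 genes with a range of at least 1 log2 unit. By Pearson correlation they were Angptl4 (0.989), Dhx58 (0.985), Lgi2 (0.983), Ccl11 (0.983) and Nfkbia (0.983), with Spearman values of 0.937 to 0.979. Angptl4 inhibits lipoprotein lipase, Dhx58 is an RNA sensor of the RIG-I family, and Ccl11 is the eosinophil chemokine eotaxin. Each had its lowest group mean in WT day 0, as Saa3 did, which follows from choosing them by their correlation with Saa3. Angptl4 had means of 6.39 in WT day 0, 8.56 in KO day 0 and 9.37 in KO day 4, and WT day 4 levels of 9.47, 7.53 and 7.50. The genes most like Lbp were Agtrap (0.995), Anxa8 (0.993), Nfe2l3 (0.992), Sfrp4 (0.988) and Itih5 (0.988). Anxa8, an annexin, had means of 8.05 in WT day 0 and 7.75 in KO day 0, and 10.4 in KO day 4, with WT day 4 levels of 10.38, 9.51 and 9.59. The 12 arrays come from 4 groups, so these correlations mostly restate differences between groups and carry no p-value.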

How the data were processed

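Total RNA from 12 samples was hybridised to Affymetrix arrays. The values are log2 levels per probe set, as the authors deposited them in 1 table. Affymetrix Expression Console is the tool named by the submitters' processing notes. How it summarised and normalized the signals is not stated in the labels used here. Samples were grouped by their labels into 4 groups of 3. The platform annotation gave 1 gene symbol to 23521 of the 41345 probe sets, several to 1814 and none to 16010. For each of 22180 genes the probe set with the highest mean over the 12 arrays was kept, with no filter on low levels.

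Group means were fitted with limma 3.58.1 in R 4.3.3 (lmFit and eBayes, no covariate, 8 residual and 4.56 prior degrees of freedom), two-sided, with Benjamini-Hochberg adjustment over the 22180 genes and a threshold of 0.05. The number of arrays limits the precision, and array files give no read depth. Levels were not compared between probe sets. Promoter windows and gene positions come from RefSeq tables on GRCm38.p6, which held windows for 7 of the 9 genes.

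The 9 genes and the 15 lists beside them were chosen with earlier results of these data known. Genes were named by a rule: the 9 genes, Gdap1 and Klf4; in each list and comparison, the genes past the threshold where 5 or fewer passed, otherwise the 4 lowest in p, and the 2 lowest in p if none had passed; and the 5 genes most correlated with Saa3 and with Lbp. Not all of those are printed. The genes given for the first WT day 4 array were named after their values were seen. Alternatives were all probe sets, averaged probe sets, a 25th-percentile filter, median centring, quantile normalization, a trended robust prior, array weights, only the groups compared, a 2-fold minimum, a replicate block and leaving out each array, or the first WT and second KO day 4 arrays together. The deviations of same-numbered arrays from their group means correlated between -0.0602 and 0.182, so the numbers were not taken to pair samples.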

Additional observations from a re-analysis of the deposited data

Results flagged for a closer look

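Of the 204 measured genes listed beside the acute-phase genes, 13 (6.37%) changed differently from day 0 to day 4 in KO and WT cells by the test of the difference itself (limma, Benjamini-Hochberg adjusted over all genes). Over all genes 3.95% did, so the count is not read as a result about the lists. The values are the KO change minus the WT change on the log2 scale. The interferon-response genes gave -3.74 for Ifit1 (adjusted p = 0.012), -1.22 for Ifit2 (0.0127), -2.46 for Oasl1 (0.0302) and -2.40 for Mx2 (0.0476), while Oas3 gave 1.07 (0.0492). Tfrc, the transferrin receptor, gave -0.84 (adjusted p = 0.0174) and Steap3, a ferrireductase related to Steap4, -0.46 (0.0335). Cd59a, an inhibitor of the terminal complement complex, gave 0.90 (adjusted p = 0.00473) and Laptm5, a macrophage marker, 0.88 (0.0082). The fibroblast markers gave -1.50 for Lum (adjusted p = 0.0104) and -0.70 for Dcn (0.0273), both matrix proteoglycans, and 0.58 for Thy1 (0.021), a surface glycoprotein, and the adipocyte marker Fabp4, a fatty acid carrier, gave 1.87 (0.0462). Of the 22 alternatives, the call was lost in 13 for Steap3, Oas3 and Fabp4, in 11 for Mx2, in 10 for Oasl1, in 8 for Dcn, in 6 for Thy1, in 3 for Tfrc, in 1 for Cd59a and Laptm5, and in 0 for Ifit1, Ifit2 and Lum. None of the 7 acute-phase genes met this rule with all arrays. Groups of 3 are too small for the test of single outlying arrays. No cause was tested.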

How the results depend on the processing

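The count of acute-phase genes past the threshold with all arrays was 3 for KO against WT at day 0, 3 for WT day 4 against day 0, 1 for KO day 4 against day 0, 0 for KO against WT at day 4 and 0 for the difference of changes. When each array in turn was left out these ranged over 2 to 5, 2 to 3, 1 to 6, 0 to 6 and 0 to 5. A trended robust prior gave 1 at day 0 and 1 in WT cells. Array weights gave 5 at day 0 and 6 at day 4, and fitting only the groups compared gave 5 at day 0, 1 in WT cells and 6 in KO cells. A 25th-percentile filter gave 1 at day 4. With the first WT and second KO day 4 arrays both left out, the counts were 5 at day 0, 5 in KO cells, 6 at day 4 and 5 for the difference of changes, 3 higher and 2 lower. Differences of opposite sign that passed were, without the first WT day 4 array, 1.42 for Lcn2 and 0.96 for Hp in the difference of changes, and with both arrays left out -0.33 for Hp in WT cells and 1.41 for Lcn2 and 0.78 for Hp in the difference of changes. Over all single arrays left out, that difference ran from -1.54 to 1.42 for Lcn2 and from -1.64 to 0.96 for Hp. The cause was not tested.

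Over 793 recalculated values of the acute-phase genes, 720 kept direction and side of the threshold, 19 lost and 49 gained a pass and 5 reversed. Over 4862 for the other genes the naming rule gave, these were 4352, 473, 37 and 0. With the replicate number as a block the acute-phase counts were 3, 3, 1, 0 and 0, and those over all genes 1181, 4931, 6647, 4417 and 801 against 1242, 5072, 6828, 4596 and 877, in the order above. The block ended the calls of Cebpg in WT cells (adjusted p = 0.0568), Bcl3 at day 0 (0.0662), Cebpd (0.0515) and Adipoq (0.061) at day 4, and Steap3 (0.0566) and Oas3 (0.0556) in the difference of changes, and Cd36 gained one there (0.0383).

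Counts over all genes moved by over 1.5 times as follows. At day 0 the 1242 became 2562 with array weights, 2453 with only the groups compared, 273 with a 2-fold minimum, 1936 without the first WT day 4 array, 2165 with both arrays left out and 769 to 826 without each day 0 array. At day 4 the 4596 became 1923 with only the groups compared, 330 with a 2-fold minimum and 2946 without the third WT day 4 array. For the difference of changes the 877 became 503 with all probe sets, 1852 with array weights, 179 with a 2-fold minimum, 2140 without the first WT day 4 array, 2521 with both left out, and between 395 and 576 without other single arrays. A 2-fold minimum left 779 of 5072 in WT cells and 834 of 6828 in KO cells. Genes under the 25th percentile, such as Saa2, have little signal over background.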
